A study of Mus musculus with 6 samples.

Results

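The respiratory chain and ATP synthase of medullary thymic epithelial cells (mTEC) are described here through 102 protein-coding genes of the 43432 gene IDs in the count table. Members were taken by symbol: those starting with mt-, Ndufa, Ndufb, Ndufc, Ndufs, Ndufv, Uqcr, Cox4 to Cox8 or Atp5, without pseudogenes. Of them, 13 are encoded by the mitochondrial genome and 89 by the nucleus. The nuclear members are 36 subunits of complex I, 8 complex I assembly factors named Ndufaf, 8 subunits of complex III, 20 genes of complex IV and 17 of ATP synthase. Ndufa4, Ndufa4l2 and Cox7a2l are counted with complex IV.

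RNA was sequenced from mTEC of C57BL/6 mice aged 4 weeks, in 3 libraries of the genotype CopaE241K/+ (MUT) and 3 of Copa+/+ (WT). The product of Copa is the alpha subunit of the COPI vesicle coat, and E241K is the amino acid change named in the mutant genotype, which MUT mice carry on 1 allele. The labels do not say whether a library came from 1 animal or a pool, so p-values measure only the spread between libraries, which may be technical. The comparison asks whether the genes of this pathway, mitochondrial and nuclear, stood at different levels in MUT and WT mTEC.

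Library totals ran from 19934513 to 23366238 counts. The mTEC label was matched by its markers: the 9 mTEC markers together reached 9636 to 11217 CPM (counts per 1000000, on TMM-scaled library sizes) in MUT and 10086 to 12684 CPM in WT. Most of each sum was H2-Aa, an MHC class II gene that dendritic cells and macrophages also express, and the other 8 markers reached 3277 to 3725 CPM in MUT and 3066 to 4914 CPM in WT. Aire, the transcriptional regulator that defines mature mTEC, was at 929 to 1563 CPM in MUT and 954 to 1379 CPM in WT. The cortical marker Psmb11 was at 4.84 to 30.2 CPM in MUT and 4.71 to 20.4 CPM in WT. Thymocyte markers summed to 112 to 680 CPM in MUT and 187 to 476 CPM in WT, and dendritic cell and macrophage markers to 585 to 1191 CPM in MUT and 634 to 1324 CPM in WT, in each case with replicate 2 highest in both genotypes. In both genotypes replicate 3 had the most genes detected, 24774 in MUT and 21755 in WT, and the lowest share of mitochondrial ribosomal RNA, 1.83% in MUT and 2.01% in WT, against 4.69% to 5.26% in the other libraries. WT replicate 1 had the fewest genes detected of all libraries, 17174. The part of these differences in the values below was not tested.

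Oxidative phosphorylation is built from 2 genomes. The mitochondrial genome encodes 13 hydrophobic core proteins, transcribed as long polycistronic RNAs that are cut at the tRNAs between the genes. All other subunits are encoded in the nucleus, translated in the cytosol and imported. Complex I oxidises NADH, complex III passes electrons from ubiquinol to cytochrome c, complex IV passes them to oxygen, and ATP synthase uses the resulting proton gradient.

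The mitochondrially encoded members differed more from each other than the genotypes did. The gene for the catalytic subunit of complex IV, mt-Co1 (chrM:5328-6872 on GRCm38), had 731177, 1277865 and 707511 counts in MUT replicates 1 to 3 and 734604, 1382408 and 494487 counts in WT replicates 1 to 3. The next gene downstream for a protein of the same complex, mt-Co2 (chrM:7013-7696), had 1 count in MUT replicate 2 and 0 in the other 5 libraries. The genes mt-Atp8, mt-Atp6, mt-Co3 and mt-Nd4l, for subunits of ATP synthase, complex IV and complex I, had 0 counts in all 6 libraries. A count of 0 allows up to 3 counts, which is 0.108 to 0.172 CPM depending on the library, and this floor covers counting error only. Since these genes lie between mt-Co1 and mt-Nd4, which had at least 123197 counts in every library, a listed 0 is not read here as absence of the RNA.

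**Figure D1:**
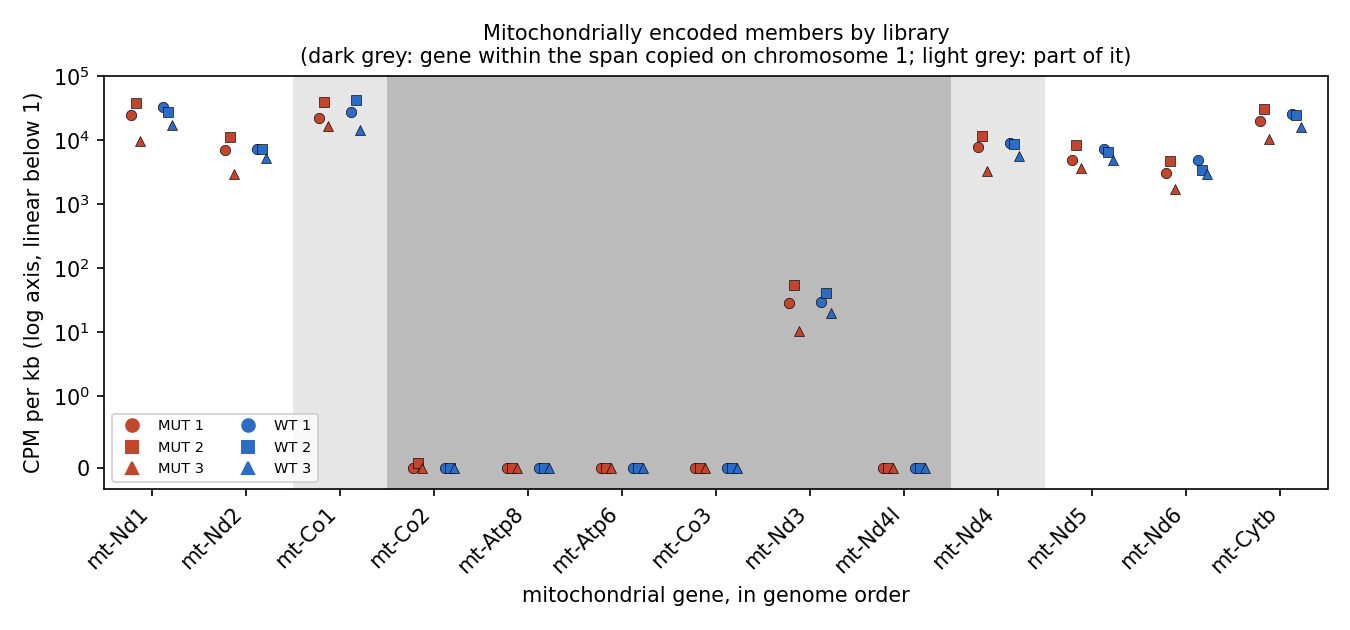
Level of each mitochondrially encoded member in CPM per kb of transcript (y axis, logarithmic above 1 and linear below), with the genes in genome order on the x axis, 3 MUT libraries to the left of 3 WT libraries and a symbol for each replicate number. The 6 genes on dark grey lie wholly within the span copied on chromosome 1: 4 are at 0 in every library, mt-Co2 has 1 count in MUT replicate 2, and mt-Nd3 is at 10.6 to 54.8 CPM per kb.

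The genes with no counts lie in 1 stretch of the mitochondrial genome that has a near-identical nuclear copy. On GRCm38 with GENCODE M21, 7 pseudogenes at chr1:24611535-24616197, all on the minus strand, match chrM:6381-11042, a span of 4662 bases. The copies of mt-Co2 (Gm28661, 681 aligned bases), mt-Atp6 (Gm10925, 678), mt-Co3 (Gm28437, 783) and mt-Nd4l (Gm10222, 294) had 0 differences from the mitochondrial gene. The copy of mt-Nd3, Gm28438, had 1 difference over 345 aligned bases, T3C, counted from the first base of mt-Nd3 with the mitochondrial base first. The copy of mt-Nd4, Gm28439, had 0 differences but covers only 63.57% of that gene. The copy of mt-Co1, Gm29216, covers 31.84% and had 6 differences. These all lie between positions 1056 and 1066 of mt-Co1, at the start of an alignment over positions 1054 to 1545. mt-Atp8 lies in the span between the copied genes, with no annotated pseudogene of its own.

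The first 90 bases of mt-Nd3, which had counts, and of mt-Nd4l, which had none, are shown with those of their copies, read from the GENCODE M21 transcripts of GRCm38. They are at chrM:9459-9548 (plus strand) and chr1:24613030-24613119 (minus strand) for mt-Nd3 and Gm28438, and at chrM:9877-9966 (plus strand) and chr1:24612611-24612700 (minus strand) for mt-Nd4l and Gm10222. The capital marks the base that differs; the second pair is identical.
mt-Nd3: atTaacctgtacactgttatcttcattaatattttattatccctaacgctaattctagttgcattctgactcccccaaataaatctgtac
Gm28438: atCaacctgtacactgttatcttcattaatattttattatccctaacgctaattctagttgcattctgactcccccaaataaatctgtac
mt-Nd4l: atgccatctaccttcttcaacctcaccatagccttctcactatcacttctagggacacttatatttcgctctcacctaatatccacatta
Gm10222: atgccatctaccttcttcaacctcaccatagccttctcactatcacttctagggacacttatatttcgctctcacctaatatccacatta

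mt-Nd3, the one member fully inside the span with counts in every library, had 212, 398 and 102 counts in MUT replicates 1 to 3 and 177, 306 and 160 counts in WT replicates 1 to 3. The pseudogenes had few counts themselves: Gm28661 had 37 to 223 counts per library, Gm29216 28 to 142, and the other 5 between 0 and 65. The tRNA genes mt-Ts1, mt-Td, mt-Tk and mt-Tg inside the span were also at 0 and mt-Tr was at 3 to 27 counts, while outside it mt-Tw, mt-Ty and mt-Th were at 0 too. The sources used here do not give how a read that matches more than 1 place was counted, and its part in these values was not tested. Sums over mitochondrially encoded members below are therefore sums over the genes that were counted, and 8 of the 13 passed the filter on low counts.

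Among the 7 members with the most counts, mt-Co1, mt-Nd1 and mt-Cytb stood highest per kb of full transcript length. Of mt-Co1, 31.84% of the length lies in the copied span, where genes that lie wholly inside had few or no counts. Levels over only the bases outside the span were not computed, so the order below describes counted reads and may not be that of the RNAs. mt-Co1 averaged 26164 ± 12006 CPM per kb in MUT and 27846 ± 14032 CPM per kb in WT (mean ± SD, n = 3 each, as for all means here). mt-Nd1, a membrane subunit of complex I, averaged 23757 ± 13773 in MUT and 25886 ± 8232 CPM per kb in WT. mt-Cytb, the cytochrome b of complex III, averaged 20276 ± 10030.2 in MUT and 21936 ± 5396 CPM per kb in WT. The order of these 3 lies within their spread between libraries. mt-Nd4, with 63.57% of its length in the copied span, followed with 7479 ± 4162 in MUT and 7701 ± 1840 CPM per kb in WT. mt-Nd2 averaged 6990 ± 4093 and 6529 ± 1107 CPM per kb in MUT and WT, and mt-Nd5 5569 ± 2412 in MUT and 6293 ± 1227 CPM per kb in WT, so these 3 complex I genes also overlap. mt-Nd6, the only protein gene on the other strand, was lowest of the 7 by mean, at 3174 ± 1507 CPM per kb in MUT and 3697 ± 1017 CPM per kb in WT.

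In every one of these 7 genes the lowest MUT library was replicate 3 and the highest was replicate 2. Among WT libraries replicate 3 was also the lowest in all 7. mt-Cytb, for example, was at 22633.5, 34940.3 and 12012 CPM in MUT replicates 1 to 3 and at 28911, 28401 and 17973 CPM in WT replicates 1 to 3. The spread between replicate numbers thus exceeded the difference between the genotype means, and the genotypes overlapped in all 8 tested mitochondrial members.

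Mitochondrially encoded members took 10.9%, 16.1% and 7.31% of all counts in MUT replicates 1 to 3 and 11.8%, 14.2% and 9.07% in WT replicates 1 to 3. The 95% Wilson interval of each share reached at most 0.0151 percentage points to either side, for counting error only. The means were 11.4 ± 4.43% in MUT and 11.7 ± 2.56% in WT, with overlapping ranges. The sum of the nuclear members was far smaller and steadier in MUT, at 0.670%, 0.673% and 0.653% of counts in MUT and 0.551%, 0.787% and 0.725% in WT, with intervals of at most 0.00372 percentage points to either side. In bulk RNA, fewer cells of a type and less RNA per cell cannot be told apart.

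The ratio of mitochondrially encoded to nuclear members within a library needs no scaling between libraries. On the log2 scale it was 4.02, 4.58 and 3.48 in MUT replicates 1 to 3 and 4.43, 4.17 and 3.65 in WT replicates 1 to 3. The means were 4.03 ± 0.55 in MUT and 4.08 ± 0.40 in WT, a difference of -0.05 that is smaller than the spread within either genotype. Replicate 3 was lowest in both genotypes, so the genotypes overlap over most of their range. Without MUT replicate 3 the difference was 0.22, without WT replicate 1 it was 0.12, and with the libraries numbered 1 and 2 alone it was 0.0023, so its sign rests on single libraries. With only the mitochondrial members that have no base in the copied span it was -0.11.

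Within single complexes the ratios moved apart by less than their spread as well. For complex I the log2 ratio of mitochondrial to nuclear counts was 4.91, 5.13 and 3.94 in MUT and 5.12, 4.50 and 4.50 in WT. For complex III, where mt-Cytb is the only mitochondrial gene, it was 5.51, 5.64 and 4.95 in MUT and 5.38, 5.15 and 4.85 in WT, a difference in means of 0.24 with MUT higher in each replicate number but with overlapping ranges. For complex IV it was 4.77, 5.37 and 4.90 in MUT and 4.85, 5.31 and 4.24 in WT. Its mitochondrial counts were those of mt-Co1, apart from 1 count of mt-Co2 in MUT replicate 2. The part of mt-Co1 in all mitochondrial member counts ranged from 31.7% to 41.4% in MUT and from 27.3% to 42.6% in WT.

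**Figure D2:**
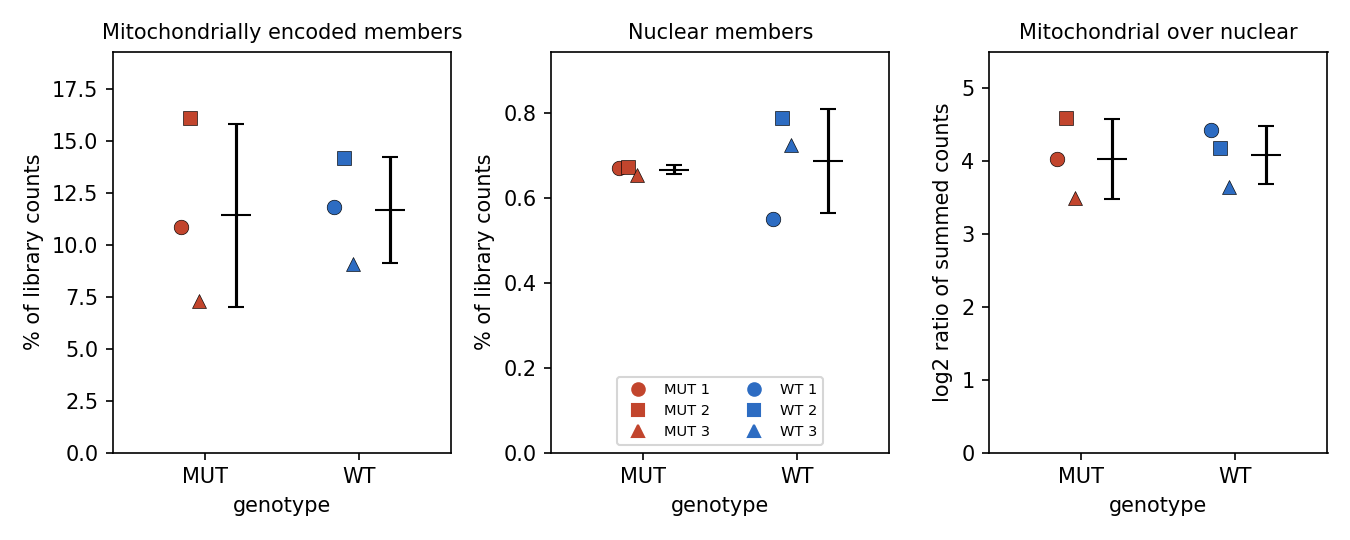
Share of each library's counts on mitochondrially encoded members (left) and on nuclear members (middle), and the log2 ratio of their summed counts (right), for 3 MUT libraries left of 3 WT libraries. Symbols give the replicate number, and black bars are the mean ± SD; replicate 3 is the lowest library of each genotype in the left and right panels.

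In a test across all genes, no gene passed the threshold for a difference between the genotypes. edgeR's quasi-likelihood test with Benjamini-Hochberg adjustment called 0 of 17172 genes higher in MUT (0%) and 0 lower (0%), with a lowest adjusted p of 0.999875. At an unadjusted p under 0.05 it had 279 genes higher (1.62%) and 318 lower (1.85%). Every MUT library stood above every WT library in 926 genes (5.39%) and below in 680 (3.96%). DESeq2 called 116 genes and limma-voom 0, and none of these calls was a member.

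Of the 102 members, 92 passed the filter and 0 were called by edgeR, DESeq2 or limma-voom. At an unadjusted p under 0.05, 0 members were higher in MUT and 1, Ndufb5, was lower. The median log2 fold change was -0.10 over the 8 tested mitochondrial members (2 above 0, 6 below) and -0.19 over the 84 tested nuclear members (30 above 0, 54 below), beside -0.01 over all tested genes, of which 49.4% were above 0. The mitochondrial median turned to 0.22 when MUT replicate 3 was left out, to 0.03 when WT replicate 1 was and to 0.0049 when WT replicate 2 was. The nuclear median ran from -0.35 to -0.04 when 1 library was left out, the value nearest to 0 being that without MUT replicate 3.

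Every MUT library stood below every WT library in 9 of the 84 tested nuclear members (10.7%, beside 3.96% of all genes) and above in 0 (beside 5.39%). These 9 were Ndufb5, Ndufa12, Ndufs6, Ndufb9, Uqcrb, Uqcrq, Uqcrc1, Atp5s and Atp5j. With counts scaled by library totals alone, 9 members were below (beside 3.06% of all genes) and 2 above (beside 5.80%). Groups of 2 libraries separate more readily, in all genes as in the members. With MUT replicate 1 left out, 15 of the 84 were below (17.9%, beside 6.99% of all genes) and 2 above (beside 10.2%). Leaving out MUT replicate 2 gave 20 below (23.8%, beside 7.37%) and 1 above (beside 10.5%), and leaving out MUT replicate 3 gave 12 below (14.3%, beside 9.59%) and 7 above (beside 9.66%). Leaving out WT replicate 1 gave 12 below (14.3%, beside 9.28%) and 1 above (beside 9.42%). Without WT replicate 2 the counts were 11 below (13.1%, beside 8.33%) and 6 above (beside 10.2%), and without WT replicate 3 they were 18 below (21.4%, beside 9.54%) and 2 above (beside 12.7%). With the libraries numbered 1 and 2 alone, 20 members were below (23.8%, beside 14.9%) and 10 above (beside 16.8%), so the excess of members below over members above was smallest without MUT replicate 3 or WT replicate 2.

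**Figure D3:**
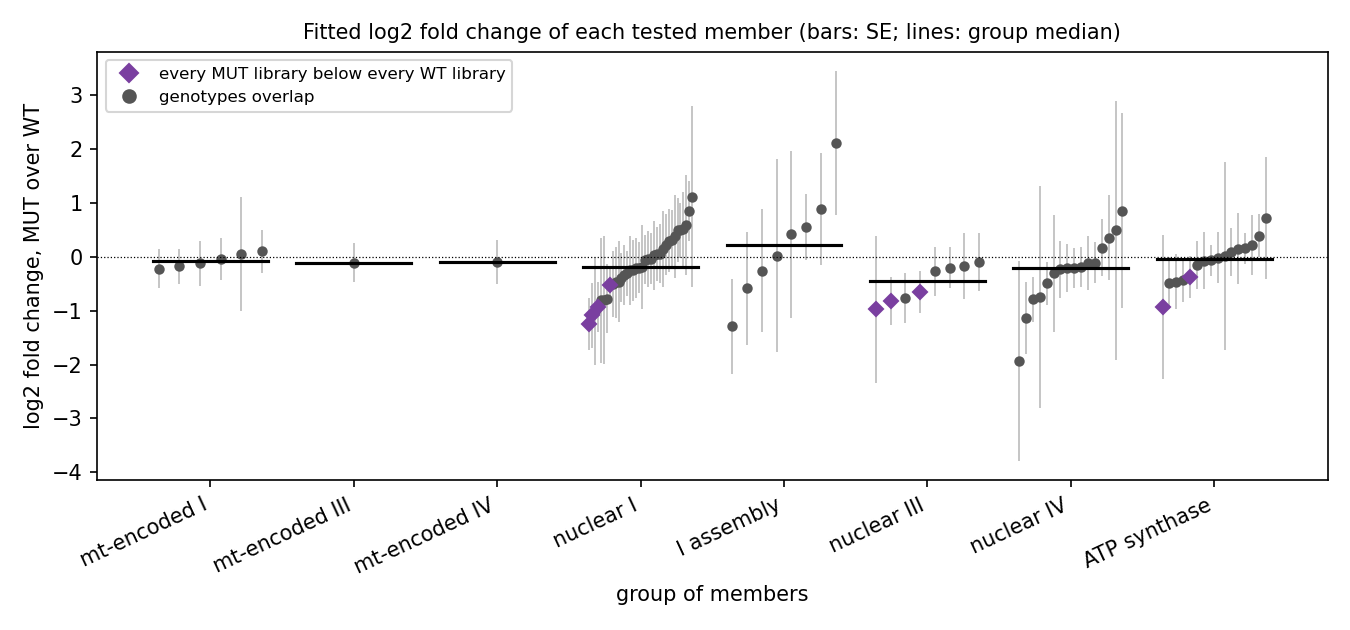
Fitted log2 fold change of MUT over WT (y axis) for each of the 92 tested members, grouped by complex and genome on the x axis and sorted within a group; grey bars are the SE and black lines the group medians. Purple diamonds mark the 9 members whose 3 MUT libraries lie below all 3 WT libraries, and the median of nuclear complex III genes is -0.46.

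Complex I is the largest of the complexes, with core subunits that carry electrons and many accessory subunits that are needed for its assembly and stability. Of its 36 nuclear subunits, all tested, 22 had a log2 fold change below 0 and 14 above, with a median of -0.20. Ndufb5 (ENSMUSG00000027673, an accessory subunit of the membrane arm) had 47.6, 29.5 and 53.6 CPM in MUT replicates 1 to 3 and 143, 94.8 and 71.2 CPM in WT replicates 1 to 3. All 3 MUT libraries were below the lowest WT library, and its log2 fold change was -1.24 (SE 0.48, unadjusted p = 0.0238, adjusted p = 0.999875 by edgeR's quasi-likelihood test with Benjamini-Hochberg adjustment). Ndufs6, an accessory subunit that binds zinc, had 43.7, 37.1 and 38.9 CPM in MUT and 63.5, 80.4 and 84.6 CPM in WT, a log2 fold change of -0.93 (SE 0.47). The MUT values lay close together and the genotypes did not overlap.

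Ndufb9, an accessory subunit of the LYR-motif family and the nuclear complex I member with the highest mean CPM, had 136.7, 176 and 144 CPM in MUT and 229, 248 and 181 CPM in WT (log2 fold change -0.53, SE 0.33). Ndufa12, an accessory subunit of the matrix arm chosen after its values were seen, had 19.9, 19.1 and 27.1 CPM in MUT and 47.7, 61.5 and 31.3 CPM in WT (log2 fold change -1.09, SE 0.61). Both were lower in all MUT libraries. Ndufc2, an accessory membrane-arm subunit and second by mean CPM, had 118.7, 194 and 125.5 CPM in MUT and 67.6, 249 and 134 CPM in WT, with the lowest and the highest value both in WT. The 36 fold changes ran from -1.24 for Ndufb5 to 1.12 for Ndufs5, which is named only as the upper end and had under 7 CPM in all 6 libraries.

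The assembly factors of complex I, which build the complex and are not part of it, varied more between libraries than its subunits. Of the 8 genes, 5 had a log2 fold change above 0 and 3 below, with a median of 0.22. Their median SE was 1.10, beside 0.58 for the subunits and 1.03 for all tested genes. They were also lower, with a median of 7.36 CPM per kb beside 43.4 for the subunits. Ndufaf1, a factor for the membrane arm, had 48.0, 3.74 and 10.7 CPM in MUT replicates 1 to 3 and 0.402, 10.9 and 3.17 CPM in WT replicates 1 to 3 (log2 fold change 2.11, SE 1.34). MUT replicate 1 alone was above all WT libraries. Ndufaf4, an early factor, had 6.79, 11.9 and 13.9 CPM in MUT and 52.5, 13.5 and 13.8 CPM in WT, where replicate 1 stood apart from the other 5 libraries. Ndufaf3, which works with Ndufaf4, had the highest mean of the group, with 64.3, 34.4 and 31.8 CPM in MUT and 20.4, 40.6 and 27.6 CPM in WT, and the genotypes overlapped. WT replicate 1, the library with the fewest genes detected, was also nearly without Ndufaf5, at 0.0575 CPM, and listed Ndufaf6 at 0. The other 5 libraries had 1.84 to 13.9 CPM of these genes, both chosen after their values were seen.

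Complex III was the group whose nuclear members lay furthest to 1 side. All 8 had a log2 fold change below 0, between -0.97 and -0.10, with a median of -0.46 beside -0.01 for all genes. Every MUT library was below every WT library in 3 of the 8, beside 3.96% of all genes. The count below 0 was 8 with MUT replicate 1, MUT replicate 2 or WT replicate 3 left out, and 7 with MUT replicate 3, WT replicate 1 or WT replicate 2 left out. The median ran from -0.82 without MUT replicate 2 to -0.32 without MUT replicate 3. None of the 8 was called, and at an unadjusted p under 0.05 the count was 0.

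Uqcrq, a small membrane subunit, had 68.4, 83.7 and 39.9 CPM in MUT replicates 1 to 3 and 99.3, 145 and 93.4 CPM in WT replicates 1 to 3 (log2 fold change -0.81, SE 0.44). Uqcrc1, a core subunit related to processing peptidases, had 63.6, 97.4 and 70.6 CPM in MUT and 124, 131 and 108 CPM in WT (log2 fold change -0.65, SE 0.39). In both genes the lowest WT library exceeded the highest MUT library. Uqcrc2, the other core subunit, had 127, 116 and 85.7 CPM in MUT and 152, 129 and 97.5 CPM in WT, which overlap. Uqcrh, the hinge protein near cytochrome c1, had 68.6, 183 and 75.9 CPM in MUT and 103.5, 161 and 129 CPM in WT, with the highest value in MUT replicate 2. Uqcrfs1, the Rieske iron-sulfur protein chosen after its values were seen, had 40.1, 49.7 and 60.2 CPM in MUT and 58.1, 102 and 95.2 CPM in WT, and its genotypes overlap only through WT replicate 1. Uqcrb separated the genotypes at low values, 3.16 to 4.17 CPM in MUT and 4.94 to 11.4 CPM in WT, and 43.4% of its 50-base words also occur in other annotated genes.

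**Figure D4:**
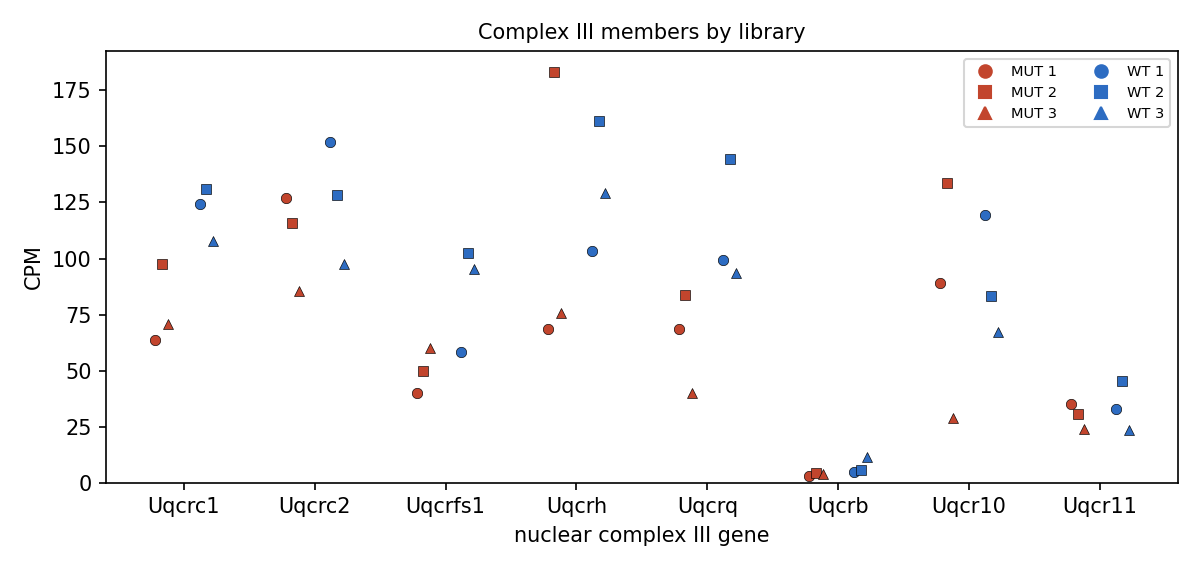
CPM of the 8 nuclear complex III genes (x axis) in each library, 3 MUT libraries in red to the left of 3 WT libraries in blue, with a symbol for each replicate number. The MUT and WT points do not overlap for Uqcrc1, Uqcrq and Uqcrb and overlap for the other 5.

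In complex IV, 16 of 20 genes were tested, 12 with a log2 fold change below 0 and 4 above, and the median was -0.21. The nuclear subunits surround the mitochondrial core, and several exist as a general form and a form restricted to certain tissues. Cox6c, a small membrane subunit, had 59.1, 124 and 82.7 CPM in MUT replicates 1 to 3 and 205, 142 and 113 CPM in WT replicates 1 to 3 (log2 fold change -0.79, SE 0.42). Cox5b, a zinc-binding subunit, had 11.7, 21.0 and 30.3 CPM in MUT and 58.3, 55.8 and 24.6 CPM in WT (log2 fold change -1.14, SE 0.66). In each of these genes 1 MUT library reached above the lowest WT library. Cox6a1 and Cox6b1, the general forms of 2 further subunits, had the highest mean CPM of the group. Cox6a1 averaged 230 ± 97.8 CPM in MUT and 265 ± 54.35 CPM in WT, and Cox6b1 177.5 ± 75.8 CPM in MUT and 205 ± 86.4 CPM in WT, both overlapping.

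The tissue-restricted forms were a minor part of their pairs, at most 10.8% in any library, and uneven between libraries. Each is given as its share of the counts of the pair it forms with its general counterpart. Cox4i2, a form known from lung and from low oxygen, made up 2.98%, 0.547% and 1.602% of the pair with Cox4i1 in MUT replicates 1 to 3 and 0%, 7.61% and 8.76% in WT replicates 1 to 3. The 95% Wilson interval of the highest share, in WT replicate 3, was 7.80% to 9.83%, and that of the 0 in WT replicate 1 reached 0.163%. Cox7a1, a form of heart and skeletal muscle, made up 0%, 10.8% and 1.59% of the pair with Cox7a2 in MUT and 0%, 8.73% and 0.968% in WT. Replicate 2 held the highest share of Cox7a1 in both genotypes, with intervals of 9.20% to 12.6% in MUT and 7.22% to 10.5% in WT. All intervals in this paragraph cover counting error only, not the spread between libraries.

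Cox6a2, also a form of heart and skeletal muscle, made up 1.31%, 4.56% and 0.848% of the pair with Cox6a1 in MUT and 0.0264%, 0.318% and 3.77% in WT. Cox6b2, a testis form, made up 3.20%, 0% and 3.15% of the pair with Cox6b1 in MUT and 5.09%, 0.307% and 0.306% in WT. Neither genotype was uniformly high in any of these 4 forms. MUT replicate 2 held the highest share of both muscle forms, Cox7a1 and Cox6a2, WT replicate 3 that of Cox4i2 and WT replicate 1 that of Cox6b2. The muscle form Cox8b was at most 0.610% of the pair with Cox8a, the testis form Cox7b2 at most 1.38% of the pair with Cox7b, and the hypoxia-induced Ndufa4l2 at most 0.0909% of the pair with Ndufa4. The testis form Cox8c was at 0 in all 6 libraries.

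**Figure D5:**
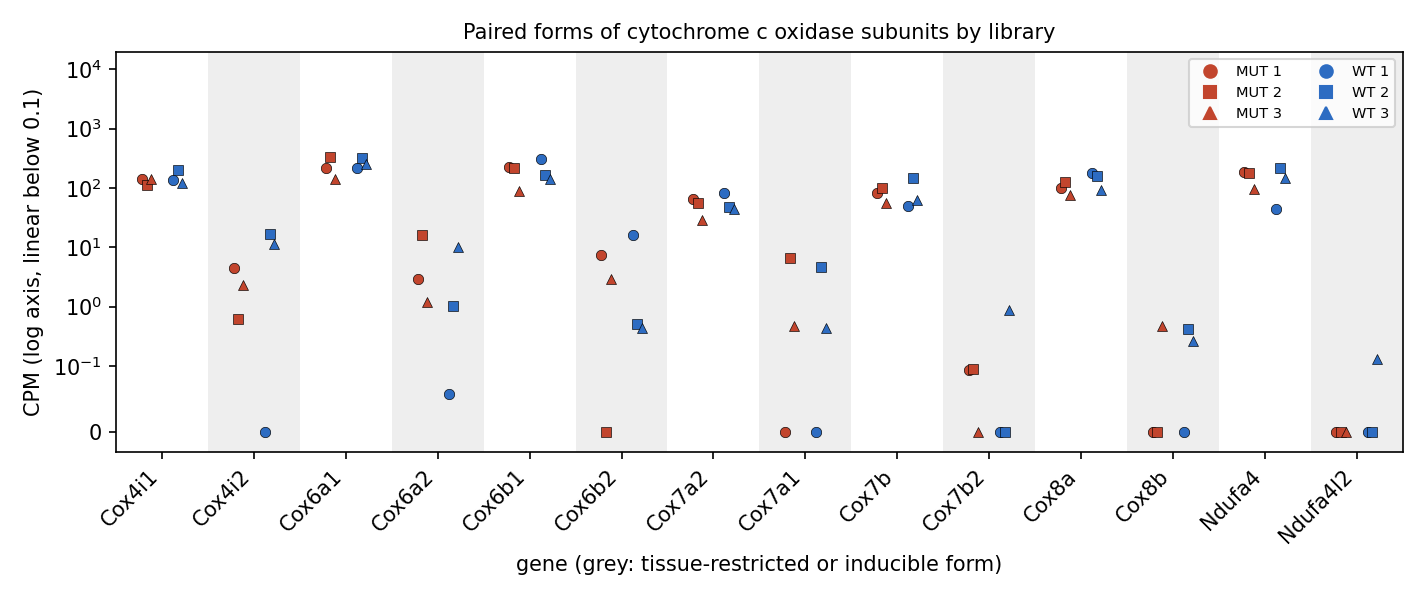
CPM of the paired forms of complex IV genes (y axis, logarithmic above 0.1 and linear below), each general form followed on grey by its tissue-restricted or inducible form, with 3 MUT libraries left of 3 WT libraries. The general forms lie between 29.2 and 334 CPM in every library, and the grey forms between 0 and 16.6 CPM.

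Markers of muscle-like mTEC were read beside these muscle forms. Their summed level was 111.5, 124 and 45.9 CPM in MUT replicates 1 to 3 and 62.9, 28.8 and 18.2 CPM in WT replicates 1 to 3, so the groups overlap through MUT replicate 3. Of the 6 markers, 5 had a log2 fold change above 0. Myog, the myogenic transcription factor with the smallest p of that list, was at 44.6, 23.1 and 11.1 CPM in MUT and 0.977, 2.31 and 2.11 CPM in WT, with an adjusted p of 0.999875 by edgeR's quasi-likelihood test with Benjamini-Hochberg adjustment. MUT replicate 2 was highest both in the marker sum and in the shares of Cox6a2 and Cox7a1. Within WT the order differed. Replicate 1 had the highest marker sum, with 0% Cox7a1 and 0.0264% Cox6a2, and replicate 3 the lowest, with 3.77% Cox6a2. The part of muscle-like mTEC in the levels of Cox6a2, Cox7a1 and Cox8b was not tested.

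ATP synthase lay nearest to all genes, with a median log2 fold change of -0.04 over 16 tested members of 17, 7 above 0 and 9 below. Atp5b, the catalytic beta subunit, was the highest nuclear member, with 1698, 1294 and 1465 CPM in MUT replicates 1 to 3 and 963, 1828 and 1216 CPM in WT replicates 1 to 3. WT replicates 1 and 2 held the lowest and the highest value. Per kb it averaged 776 ± 106 CPM in MUT and 697 ± 232 CPM in WT, far under mt-Co1. Atp5a1, the alpha subunit, averaged 453 ± 38.8 CPM in MUT and 475 ± 82.8 CPM in WT. Atp5d, the delta subunit of the central stalk, averaged 134 ± 53.5 CPM in MUT and 181 ± 40.5 CPM in WT (log2 fold change -0.44, SE 0.40), and Atp5f1, a peripheral stalk subunit, 45.4 ± 7.84 CPM in MUT and 63.7 ± 11.9 CPM in WT (log2 fold change -0.49, SE 0.48).

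Atp5j, another peripheral stalk subunit, had 94.8, 96.5 and 67.7 CPM in MUT and 118, 121 and 97.9 CPM in WT, groups that come within 2 CPM of each other without overlapping. Atp5s separated them at 2.03 to 5.13 CPM in MUT and 5.23 to 8.96 CPM in WT. Atp5g2, 1 of 3 genes for the c subunit of the membrane ring, was too low to test, at 0.0472 to 0.217 CPM in MUT and 0.471 to 1.23 CPM in WT. The other c subunit genes were higher, with Atp5g3 at 80.1 to 125 CPM in MUT and 56.7 to 135.5 CPM in WT and Atp5g1 at 8.96 to 18.4 CPM in MUT and 1.67 to 11.9 CPM in WT. The genes of the ATP synthase in this paragraph were chosen after their values were seen.

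Many nuclear members share sequence with annotated pseudogenes or with other genes, and their levels can depend on how shared reads were counted. The share of a member's 50-base words that also occur in another annotated gene, on either strand, was computed from the GENCODE M21 transcripts. The other gene need not be a pseudogene: Uqcrc2 shared 24.8% of its words and Ndufb6 34.1%, with 0 pseudogenes in each case. Over the 73 nuclear subunits compared, leaving out assembly factors and restricted forms, the 6 with 40% or more shared words (Atp5g2, Atp5h, Atp5l, Atp5o, Cox7c and Uqcrb) had a median of 13.5 CPM per kb. The 28 with none had a median of 59.0 CPM per kb, the 15 with under 10% 72.2 and the 24 with 10 to 40% 65.0. Atp5g2 shared 87.4% of its words and Atp5l 84.9%, and both were at or under 4.12 CPM in every library, whereas Atp5h, with 47.9%, was at 31.2 to 57.15 CPM in MUT and 45.02 to 49.3 CPM in WT. The Spearman correlation between shared words and level was -0.27 over 73 genes, a description across genes that share libraries and are not replicates. The sources used here give neither the read length nor the treatment of shared reads, and the part of sharing in these levels was not tested.

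Promoters of nuclear members were searched for motifs known from this pathway. NRF-1, GABPA and YY1 are transcription factors known to bind promoters of respiratory chain genes in mammals. RefSeq promoter windows (GRCm38.p6, 250 bases before to 50 after the start) were matched for 73 of the 89 nuclear members, and motifs were searched on both strands. The NRF-1 motif, GCGCA and GCGC with any base between them, was found for 17 members (23.3%, beside 5.19% of 27025 genes). CCGGAAG, the GABPA motif, was found for 16 (21.9%, beside 9.93%), and AAGATGGCG, the YY1 motif, for 8 (10.96%, beside 1.64%). Any of these motifs was found for 35 of the 73 members (47.9%), and the share of all genes with any of them was not computed. Members had 1.07 windows per gene on average and all genes 1.22. By group, NRF-1 matches were found for 6 of 15 ATP synthase genes, 7 of 32 complex I subunits, 2 of 7 assembly factors, 1 of 5 complex III genes and 1 of 14 complex IV genes, the last close to the share of all genes. A match describes the letters in the window and is no evidence of binding in mTEC.

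The promoters of Cox6a1, Cox8a and Cox8b are shown as examples of windows with and without matches, chosen after the matches were seen. Of the general forms with a window, 3 of 6 had any match (Cox6a1, Cox6b1 and Cox8a), and Cox7a2, Cox7b and Ndufa4 had none. Of the restricted forms 0 of 4 had one. With so few genes and no share of all genes beside them, these counts do not tell general from restricted forms. Cox6a1 (chr5:115348909-115349208, minus strand) and Cox8a (chr19:7217567-7217866, minus strand) belong to genes at 139 to 334 CPM and 76.5 to 177 CPM. Cox8b (chr7:140900397-140900696, minus strand) belongs to a gene at 0 to 0.470 CPM. Capitals mark matches to the NRF-1 and GABPA motifs on either strand, and the Cox8b window holds none.
Cox6a1: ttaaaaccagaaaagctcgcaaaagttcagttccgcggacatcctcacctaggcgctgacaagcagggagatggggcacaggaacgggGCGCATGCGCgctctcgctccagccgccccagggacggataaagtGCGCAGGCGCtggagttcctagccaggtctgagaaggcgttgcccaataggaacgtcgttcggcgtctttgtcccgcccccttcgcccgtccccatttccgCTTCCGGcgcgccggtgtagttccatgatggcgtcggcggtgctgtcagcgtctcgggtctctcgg
Cox8a: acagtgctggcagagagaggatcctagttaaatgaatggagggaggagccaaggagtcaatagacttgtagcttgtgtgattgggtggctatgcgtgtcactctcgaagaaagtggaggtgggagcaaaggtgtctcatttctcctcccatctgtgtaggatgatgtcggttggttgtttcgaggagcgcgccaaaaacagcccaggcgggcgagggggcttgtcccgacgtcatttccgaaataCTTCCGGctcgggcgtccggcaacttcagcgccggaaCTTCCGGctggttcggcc
Cox8b: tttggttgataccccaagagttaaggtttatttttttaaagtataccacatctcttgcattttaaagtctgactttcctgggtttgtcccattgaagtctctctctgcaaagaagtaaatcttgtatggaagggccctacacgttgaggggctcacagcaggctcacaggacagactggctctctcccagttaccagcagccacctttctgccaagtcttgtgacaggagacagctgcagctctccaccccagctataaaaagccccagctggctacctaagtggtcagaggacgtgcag

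Around the respiratory chain, 11 lists of related pathways were read from the same test, and edgeR called 0 genes in each. Complex II, the nuclear-only entry for succinate, had 3 of 4 genes below 0 and a median of -0.21. Its iron-sulfur subunit Sdhb had 26.7, 47.3 and 36.8 CPM in MUT and 41.7, 123 and 44.1 CPM in WT. Assembly factors not named Ndufaf, which serve complexes I to IV and ATP synthase, had 20 of 35 tested genes below 0 with a median of -0.41, and Pet100, a complex IV assembly factor, had 16.98, 16.3 and 8.67 CPM in MUT and 27.2, 80.4 and 15.6 CPM in WT. In both genes WT replicate 2 was the highest library.

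Genes that maintain and transcribe mitochondrial DNA had 12 of 20 above 0 and a median of 0.16. Tfb2m, an initiation factor of mitochondrial transcription, had 12.0, 45.1 and 12.5 CPM in MUT and 2.01, 10.9 and 7.48 CPM in WT, with all MUT libraries above all WT libraries (log2 fold change 1.77, SE 1.03). Mitochondrial RNA processing and stability genes had 10 of 19 above 0 and a median of 0.31, and Tbrg4 (FASTKD4), which stabilises mitochondrial mRNAs, had 58.4, 48.0 and 25.3 CPM in MUT and 28.8, 8.76 and 27.1 CPM in WT. Mitochondrial ribosomal proteins had 41 of 76 below 0 and a median of -0.14. Mrpl50, a large-subunit protein, had 8.44, 9.48 and 12.0 CPM in MUT and 52.5, 53.7 and 28.3 CPM in WT, without overlap (log2 fold change -2.17, SE 0.68, adjusted p = 0.999875 by edgeR's quasi-likelihood test with Benjamini-Hochberg adjustment). It was the only named gene that DESeq2 called.

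Regulators of mitochondrial biogenesis had 11 of 12 genes below 0 and a median of -0.31. Their summed level was 955, 702 and 756 CPM in MUT replicates 1 to 3. In WT it was 1544, 891 and 754 CPM, so WT replicate 1 stood apart and the genotypes overlapped. The part of that library in the count below 0 was not tested. Ppargc1a, the coactivator known to raise mitochondrial content, had 2.31, 8.77 and 25.7 CPM in MUT and 161, 57.0 and 4.84 CPM in WT (log2 fold change -2.60, SE 1.10), with WT replicate 3 below MUT replicates 2 and 3. In the lists of coenzyme Q synthesis and of mitochondrial chaperones and proteases, the gene with the smallest p was far higher in WT replicate 1 than elsewhere. Coq10a, a coenzyme Q-binding protein, had 259 CPM there and 5.51 to 12.4 CPM in the other 5 libraries, and without that library its log2 fold change was 0.37. Trap1, the mitochondrial Hsp90, had 336 CPM there and 41.4 to 69.7 CPM elsewhere, with a log2 fold change of 0.43 without it. The lists had 8 of 13 and 13 of 17 genes below 0, with medians of -0.13 and -0.09.

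Mobile carriers and exchange proteins had 3 of 7 genes below 0 and a median of 0.00023, and Vdac2, an outer membrane channel, had 59.2, 132 and 141 CPM in MUT and 97.9, 281 and 181 CPM in WT. The tricarboxylic acid cycle had 9 of 17 genes below 0 and a median of -0.09. Its member Sucla2, a subunit of succinyl-CoA synthetase, had 19.1, 28.1 and 22.0 CPM in MUT and 55.3, 31.2 and 36.1 CPM in WT, without overlap. Glycolysis had 10 of 16 genes below 0 and a median of -0.13. Ldha, which makes lactate, had 190, 231 and 165 CPM in MUT and 337, 409 and 254 CPM in WT, again without overlap (log2 fold change -0.77, SE 0.33, unadjusted p = 0.0355 by edgeR's quasi-likelihood test).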

How the data were processed

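Total RNA of 3 MUT and 3 WT mTEC libraries was converted to cDNA by Nugen Ovation and made into Nextera XT libraries, per the labels' protocols. The authors deposited raw read counts for each Ensembl gene ID, not normalized. STAR 2.4.2a, DESeq2 1.26.0 and GRCm38 are named in the submitters' processing notes, with no role given. Which counting program, annotation and strand setting were used is not given in the sources used here, so overlapping genes and near-identical copies are uncertain. Groups and replicate numbers came from the sample titles. Every pair of libraries differed beyond sampling noise.

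Symbols (42548 of 43432 IDs), coordinates, principal transcripts and sequences came from GENCODE M21 on GRCm38, and promoters from RefSeq. The comparison was MUT minus WT, by edgeR 4.0.16 (R 4.3.3) (scaling by TMM, low genes removed by filterByExpr, quasi-likelihood F-test with the robust option, Benjamini-Hochberg adjustment at 0.05 over 17172 genes), after tests on simulated data. CPM uses TMM-scaled library sizes, and levels between genes are per kb of the principal transcript. Sums, shares, ratios and medians over members carry no test. Intervals are 95% Wilson intervals, and a count of 0 allows 3 counts. Alternatives were DESeq2 1.42.0, limma 3.58.1 voom, other scalings, no filter, the replicate number as a block and each library left out.

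Genes were named by rule: all mitochondrial members, in each nuclear group the 2 with the highest mean CPM and the 2 with the smallest p, the restricted forms with their general partners, and the gene with the smallest p of each pathway list. All other genes given with values were chosen after their values were seen, among them the 9 members with non-overlapping genotypes, so far as the rule does not name them, and the genes with most shared words. The members and lists were chosen with earlier results of these data known. Prorp and Mrpp3 had no match in the table.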

Additional observations from a re-analysis of the deposited data

How the results depend on the processing

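The 0 calls among members held under every alternative run. The number of genes called over the whole table was 0 with DESeq2 size factors, with nuclear library sizes, with limma-voom and without any 1 library, 73 with no filter on low counts, 116 with DESeq2, 1 with the replicate block and 308 with DESeq2 and the replicate block. Mrpl50 was called by DESeq2 (adjusted p = 0.0057) and by DESeq2 with the replicate block (adjusted p = 0.039), and its adjusted p ran from 0.594 to 0.999964 in the other fits. With no filter on low counts, 1 of the 47 tested named genes was called, and it was not a member. The main fit did not take the replicate numbers as pairs, since the labels do not say what they stand for. Same-numbered libraries nevertheless correlated at 0.094, 0.080 and 0.10 in their deviations from the genotype means. The highest correlations with another number were -0.050, -0.026 and -0.018. The main fit, the SDs and the counts of non-overlapping genes ignore any such pairing, and its part in them was not tested. Same-numbered MUT and WT libraries also share the ending of their source names, whose meaning the labels do not give. Within replicate numbers 1 to 3 the log2 ratio differed by -0.40, 0.41 and -0.16. The mean of these, -0.053, equals the difference of the genotype means by arithmetic, so the replicate block cannot change that mean difference. With 1 library left out, that difference ran from -0.33 to 0.22, the difference in mitochondrial share from -2.61 to 1.79 percentage points, and the count of nuclear members with every MUT library below every WT library from 11 (13.1%, beside 8.33% of all genes) to 20 (23.8%, beside 7.37%), and it was 20 with the libraries numbered 1 and 2 alone (beside 14.9%). The last count, the complex III count and the restrictions to libraries 1 and 2, to mitochondrial members outside the copied span and to nuclear members with few shared words were chosen after seeing the data. Of 47 tested named genes, 25 kept the sign of their fold change in all 14 settings, and the cause of the changes in the others was not tested. With the libraries numbered 1 and 2 alone the log2 fold change turned to 0.025 for mt-Nd1, 0.13 for mt-Nd4, 0.0076 for mt-Cytb, 0.023 for Cox6a1 and 0.039 for Atp5a1. With the replicate block it turned to -0.085 for mt-Nd2, -0.18 for mt-Nd3, 0.12 for Ndufc2 and 0.0029 for Cox7b, with DESeq2 and the replicate block to -0.10, -0.19 and 0.10 for the first 3 of these genes, and with limma-voom to -0.13, -0.28 and 0.071. With 1 library left out it ran from -0.60 to 0.25 for mt-Nd1, -0.41 to 0.46 for mt-Nd2, -0.62 to 0.46 for mt-Nd3, -0.50 to 0.32 for mt-Nd4, -0.58 to 0.053 for mt-Nd5, -0.63 to 0.077 for mt-Nd6, -0.54 to 0.19 for mt-Cytb and -0.52 to 0.33 for mt-Co1. Among nuclear members the ranges were -0.39 to 0.52 for Ndufc2, -0.58 to 0.0498 for Cox6a1, -0.41 to 0.19 for Cox6b1, -0.036 to 0.44 for Atp5b, -0.15 to 0.084 for Atp5a1, -0.34 to 0.047 for Cox4i1, -0.86 to 3.59 for Cox6a2, -1.97 to 2.82 for Cox6b2, -2.83 to 3.39 for Cox7a1, -0.47 to 0.083 for Cox7a2, -0.39 to 0.49 for Cox7b and -0.24 to 0.68 for Ndufa4. For Coq10a the range was -3.84 to 0.37 and for Trap1 -1.64 to 0.43. Where a range crosses 0 in a mitochondrial member, the highest value was without MUT replicate 3 or, for mt-Co1, without WT replicate 2, and the lowest without MUT replicate 2. With no filter or DESeq2 the median of all genes moved to between 0.15 and 0.20. The SE was 1.81 or more for the 4 tested restricted forms.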
